A study of Mus musculus with 6 samples.

Results

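The transcriptome described here is that of undifferentiated wild-type E14 ESCs, an established mouse embryonic stem cell line of strain 129/Ola. It was read from the 3 wild-type libraries among the 6 samples of the series, and every gene of the deposited table was taken, 37620 in all. The other 3 samples carry a mutant form of the ubiquitin-conjugating enzyme UBE2D3 and were not analysed here. The cells grew in 15% fetal bovine serum, and the study's methods give gelatin-coated plates and LIF. PolyA RNA was prepared from Trizol extracts, and 500 ng went into each strand-specific library. The labels number the libraries as replicates 1, 2 and 3 and give no culture for each, and their spread can therefore be technical. No group is compared with another, so every value below is a level and no p-value is given.

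ESCs are held in a self-renewing state by the transcription factors OCT4 (*Pou5f1*), SOX2 and NANOG, together with a wider set of naive factors such as KLF4 and ESRRB. LIF acts through its receptor and STAT3 to keep this state, while FGF4 acts through FGF receptors and ERK to prime the cells for differentiation. Genes of the germ layers are mostly silent in ESCs, many of them under Polycomb complexes that modify histones at CpG-rich start sites.

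The libraries held 35248706, 33227593 and 37169770 counts, and levels are given as CPM, the count of a gene scaled to its library total. A level of 1 CPM stood for between 33.2 and 37.2 reads. Levels of different genes are compared as CPM per kb, the CPM divided by the length of all exons of the gene, except in the classes of mean CPM and the order by share of counts, which are not divided by length. A gene is called detected when it had at least 1 CPM in each of the 3 libraries and not seen when it had 0 counts in each. Replicate 3 stood apart from the others. The median detected gene differed 1.06-fold between replicates 1 and 2, but 1.22-fold between replicates 1 and 3 and 1.21-fold between replicates 2 and 3. All 4 defining ESC markers were detected at high levels. Y-linked genes were also detected. *Ddx3y* reached 104.9, 127.3 and 93.4 CPM, whereas *Xist*, the RNA that silences an X chromosome in female cells, had 1.08, 1.08 and 0.834 CPM. Of the 14 genes assigned to the Y chromosome 5 were detected and *Sry* was not seen, although the study's methods call the line female.

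Start regions of 3 ESC markers that hold a known motif are shown before their levels, because OCT4 is known to bind the octamer-like letters TTTGCAT, often beside a SOX site. Each stretch is 100 bases long and lies upstream of the RefSeq start site (GRCm38.p6). Counted from that start, it runs from -130 to -31 in *Nanog*, from -150 to -51 in *Sox2* and from -220 to -121 in *Zfp42*. It is written in the direction of the gene, and capitals mark TTTGCAT or its reverse complement ATGCAAA. They come from chr6:122707359-122707458 (plus strand) for *Nanog*, chr3:34649845-34649944 (plus strand) for *Sox2* and chr8:43307130-43307229 (minus strand) for *Zfp42*.
Nanog: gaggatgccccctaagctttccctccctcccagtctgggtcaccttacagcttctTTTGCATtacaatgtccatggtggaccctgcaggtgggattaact
Sox2: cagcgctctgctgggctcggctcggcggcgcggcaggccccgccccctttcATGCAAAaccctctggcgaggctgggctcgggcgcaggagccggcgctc
Zfp42: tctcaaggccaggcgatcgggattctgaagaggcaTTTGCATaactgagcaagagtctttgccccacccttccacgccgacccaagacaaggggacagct
In *Nanog* the motif is followed after 1 base by ACAAT, the core of a SOX site, and 4 of 17102 start regions (0.0234%) held this arrangement on either strand. TTTGCAT alone was found in 3 of the 4 ESC markers, all but *Pou5f1*, and in 710 of the 17102 start regions of 300 bases (4.15%). It was in 7.04% of the start regions of genes that were not seen and in 2.94% of those of genes at 1000 CPM or more. None of the 14 naive factors and none of the 19 other ESC-enriched genes with a sequence held it in this window. The *Cdx2* window, looked up after its values were seen, did.

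*Pou5f1*, the gene of OCT4, stood at 1277, 1359 and 1045 CPM. Its mean of 1227 CPM ± 163 (SD, n = 3) corresponded to rank 62 among all genes per kb. *Zfp42*, which encodes the ESC marker REX1, stood at 883.6, 886.6 and 922.7 CPM and was the steadiest of the 4 markers, with a coefficient of variation (CV) of 2.42%. *Nanog* stood at 577.6, 583.6 and 962.2 CPM, and *Sox2* at 431.4, 451.6 and 539.6 CPM. Replicates 1 and 2 were close for both genes and replicate 3 was higher, so the mean of *Nanog* carries a CV of 31.1%. Per kb the order was *Pou5f1* (545.8 ± 72.6 CPM per kb), *Zfp42* (477.2), *Nanog* (315.7, from 257.6 to 429.1) and *Sox2* (230.5 ± 28.0, SD, n = 3). The ranges of *Pou5f1* and *Zfp42* overlapped, as did those of *Nanog* and *Sox2*, but *Nanog* was above *Sox2* in every library. *Pou5f1* was above *Zfp42* in replicates 1 and 2 and below it in replicate 3. *Pou5f1* was 2.71, 2.75 and 1.77 times as high as *Sox2* per kb.

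**Figure D1:**
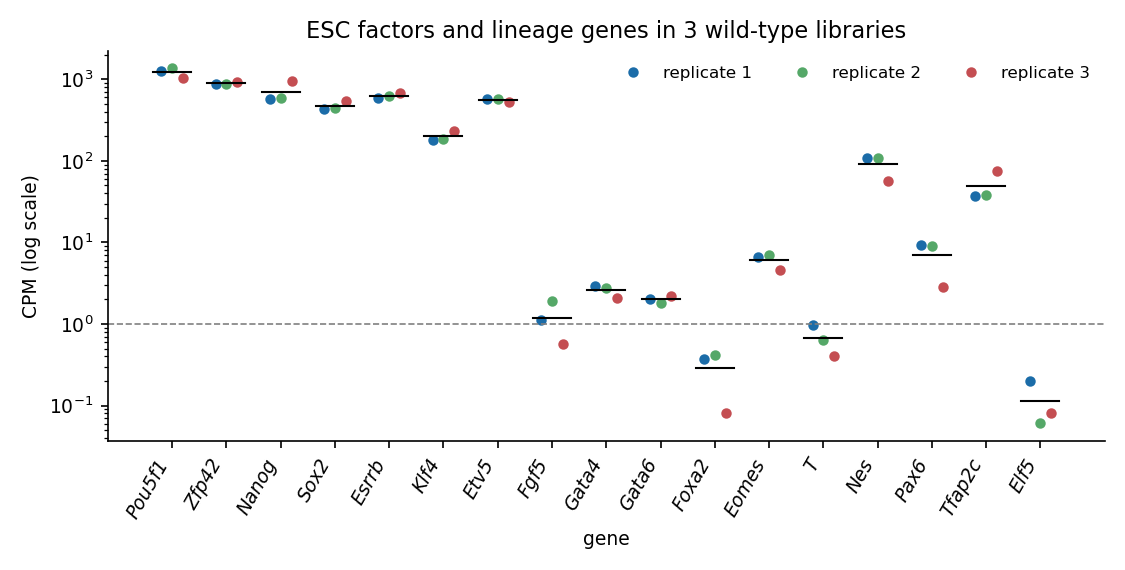
CPM (log axis) of ESC factors and lineage genes in the 3 wild-type libraries, with 1 point per library, a black bar at the mean and a dashed line at 1 CPM. The ESC factors from *Pou5f1* to *Klf4* lie above 100 CPM in every library, whereas *Foxa2*, *T* and *Elf5* lie under 1 CPM in every library.

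All 22 genes of the list of naive factors were detected, where 34.2% of all genes and 59.5% of protein-coding genes were. The list was chosen with earlier results of these data known. It also holds genes such as *Rest*, *Nacc1* and *Myc*, so the count does not describe the naive network alone. The median level of the 22 genes was 45.2 CPM per kb, against 5.78 CPM per kb for the detected genes with an exon length. *Esrrb*, a nuclear receptor that sustains self-renewal, led them per kb with 98.7, 102.4 and 113.4 CPM per kb. *Klf2* stood at 74.7, 73.4 and 79.3 CPM per kb, and *Klf4* at 181.1, 183.1 and 235.3 CPM. *Nr0b1*, which encodes the OCT4 partner DAX1, showed a different picture, with 131.4 and 128.8 CPM in replicates 1 and 2 and 55.9 CPM in replicate 3. *Prdm14*, which represses FGF signalling and DNA methylation, had the lowest mean of the 22 factors per kb at 9.99 CPM per kb. Its range overlapped that of *Stat3*, the next above it.

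All 30 ESC-enriched genes that are not sequence-specific factors were detected as well. *Dppa5a*, an RNA-binding protein gene of ESCs, had 2497, 2527 and 2967 CPM per kb, and in rank per kb it was the 10th gene of the whole table, above every ribosomal protein gene. *Trim28*, a corepressor that silences retroelements, followed with 629.0, 636.9 and 489.5 CPM per kb. *Tdgf1*, the coreceptor of NODAL also called CRIPTO, had 609.4, 831.3 and 1272 CPM, and here all 3 libraries differed. *L1td1* had 1088, 1275 and 779.0 CPM. *Tet1*, a dioxygenase of methylated cytosine named after its values were seen, had 1604, 1632 and 1507 CPM. *Tet3* was the lowest of the 30 genes per kb at 1.28 CPM per kb.

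Of 18 genes of the formative and primed states, 15 were detected, 2 lay between and 1 was not seen. *Etv5*, an effector of FGF signalling, had 567.7, 581.0 and 530.2 CPM, and the de novo DNA methyltransferase gene *Dnmt3b* had 283.1, 300.9 and 193.7 CPM. *Fgf5*, a marker of the epiblast after implantation, had 1.11, 1.90 and 0.565 CPM and fell under the detection line in replicate 3. *Pou3f1*, the gene of OCT6, had 0 counts in all 3 libraries, which allows up to 0.0284 CPM over the pooled libraries. In 13 of the 15 detected genes of this list the level in replicate 3 was below both other libraries, as it was in 35.4% of all detected genes.

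Components of LIF, FGF and NODAL signalling were widely present. All 10 genes of the LIF pathway were detected. The receptor subunit *Lifr* had 128.1, 134.8 and 120.1 CPM, and its partner *Il6st*, the gene of GP130, had 108.9, 111.6 and 116.1 CPM. *Lif* itself had 14.6, 14.6 and 17.8 CPM, so that *Lifr* was 3.33 ± 0.531 times as high as *Lif* per kb (SD, n = 3). *Socs3*, a feedback inhibitor that STAT3 induces, led the pathway per kb but was not level over the libraries, with 118.4, 134.8 and 270.1 CPM. All 22 genes of FGF and ERK signalling were detected. The ligand *Fgf4* had 202.0, 221.4 and 362.8 CPM. Among 19 genes of the BMP and NODAL pathways 17 were detected, and *Inhba* and *Cer1* were not.

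Of 58 receptor tyrosine kinase genes 39 were detected (67.2%, against 59.5% of protein-coding genes), 17 lay between and *Erbb4* and *Musk* were not seen. *Epha2*, an ephrin receptor, was the highest per kb at 36.7, 37.7 and 24.9 CPM per kb, followed by *Ptk7*, a Wnt coreceptor, at 17.2, 17.2 and 23.9 CPM per kb. *Fgfr1*, the main receptor for FGF4 in ESCs, had 64.6, 67.4 and 79.1 CPM, a mean of 70.4 ± 7.67 (SD, n = 3). *Pdgfra*, a receptor of the primitive endoderm, had 2.10, 1.99 and 1.96 CPM. Per kb *Fgfr1* was 31.3, 34.5 and 40.9 times as high as *Pdgfra*. *Kit*, the receptor of stem cell factor, had 57.6, 61.1 and 150.9 CPM so replicate 3 was over 2-fold above the others. In 29 of the 39 detected kinases replicate 3 was above both other libraries, as it was in 54.6% of all detected genes. Of these kinases 9 differed over 2-fold between their highest and lowest library, where 8.65% of all detected genes did. That share differed by level, with 25.9% of genes at a mean of 1 to 10 CPM and 4.65% at 10 to 100 CPM. Many of the 39 detected kinases had a mean under 10 CPM.

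Among the 20 cytokine and TGF-beta family receptors 17 were detected. The BMP receptor gene *Bmpr1a* led them with 17.4, 17.5 and 16.9 CPM per kb, which is above *Lifr* in every library. Of 22 receptors of the Wnt, Notch and Hedgehog pathways 19 were detected. *Fzd5* had 175.5, 182.8 and 181.0 CPM, although 17.8% of its exon length overlaps exons of another gene. *Notch3* had 50.3, 54.8 and 107.6 CPM, and the intestinal stem cell marker *Lgr5* had a mean of 0.269 CPM. Among 48 nuclear receptors 23 were detected (47.9%), against 59.5% of protein-coding genes. They were led per kb by *Esrrb*, *Nr0b1* and the retinoic acid receptor gene *Rarg*, which had 233.2, 235.9 and 133.5 CPM. The ranges of *Nr0b1* and *Rarg* overlapped.

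Ubiquitin is passed from an activating enzyme (E1) to a conjugating enzyme (E2) and then, with the help of a ligase (E3), to the substrate. All 4 ubiquitin genes were detected. *Ubb* had 1362, 1384 and 1300 CPM. *Uba1*, the main E1, had 659.2, 656.7 and 593.7 CPM, while *Uba7*, the E1 of the ubiquitin-like protein ISG15, had 5, 5 and 8 counts.

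Of 37 E2 genes 32 were detected, 4 lay between and *Ube2d4* was not seen. *Cdc34*, the E2 of SCF ligases, was the highest per kb at 111.4, 111.5 and 116.2 CPM per kb. It was followed by *Ube2c*, which works with the anaphase-promoting complex, at 88.4, 86.1 and 80.4 CPM per kb. The UBE2D family spread over this order, with *Ube2d2a* 13th, *Ube2d3* 16th and *Ube2d1* 26th of 37. In plain CPM *Ube2d3* was the highest of the list, with a mean of 397.4 ± 73.8 (SD, n = 3). *Ube2d2a* had 18.7, 18.0 and 15.0 CPM per kb, *Ube2d3* had 18.1, 17.8 and 12.8 CPM per kb, and *Ube2d1* had 6.30, 7.13 and 5.59 CPM per kb. The ranges of *Ube2d2a* and *Ube2d3* overlapped, although *Ube2d2a* was slightly above *Ube2d3* in every library, while *Ube2d1* was below both in every library. This order depends on the length used. Per kb of the longest coding transcript, *Ube2d3* moved from 16th to 3rd among the E2 genes, *Ube2s* came first, and *Ube2d3* was 1.33, 1.36 and 1.16 times as high as *Ube2d2a*. *Ube2d2b*, a further copy, had 3, 1 and 3 counts. The study describes high homology between UBE2D family members. Reads may have been split between them, which was not tested. By qRT-PCR relative to another gene, the study found *Ube2d3* mRNA to be far above that of *Ube2d2* and *Ube2d1* in ESCs. That measure is unlike CPM per kb. In plain CPM the mean of 397.4 for *Ube2d3* stood against 199.4 for *Ube2d2a* and 27.7 for *Ube2d1*. *Ube2v1*, a catalytically inactive E2 variant named after its values were seen, had a mean of 0.648 CPM, and exons of other genes overlap 69.1% of its length.

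**Figure D2:**
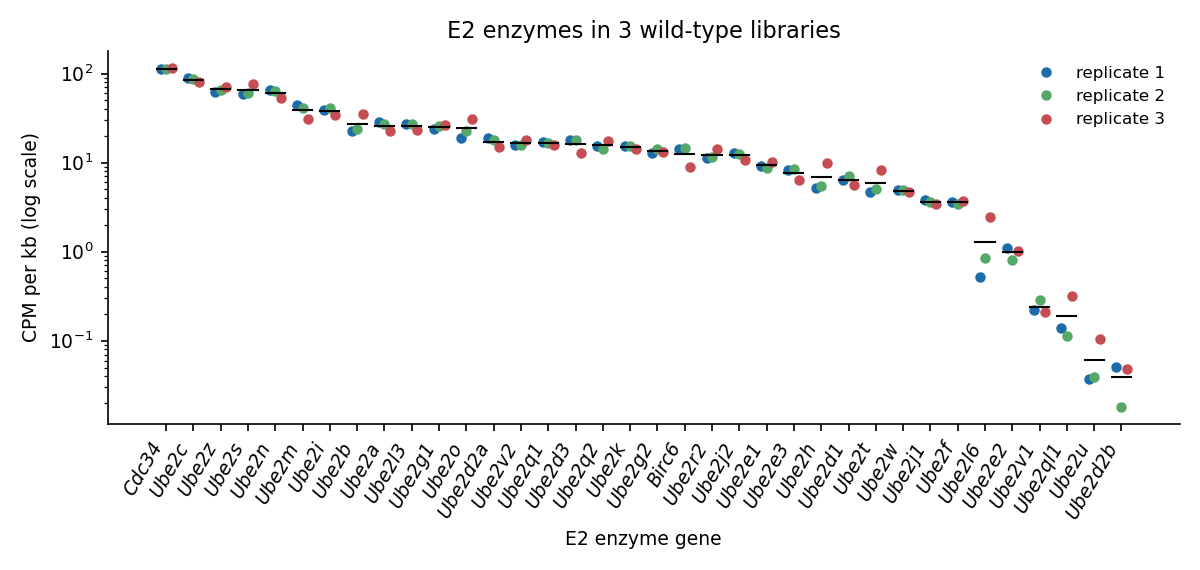
CPM per kb of exon length (log axis) of the 36 E2 genes with counts in the 3 wild-type libraries, ordered by their mean, with 1 point per library and a black bar at the mean. *Cdc34* and *Ube2c* lead, *Ube2d2a* and *Ube2d3* lie together in the middle, and *Ube2d4*, with 0 counts, cannot be drawn.

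Of 37 genes of the ligase list 36 were detected. The list holds *Cdh1*, which is the E-cadherin gene and no ligase. *Nedd4*, a HECT ligase of membrane proteins, led with 1701, 1900 and 1673 CPM, or between 152.5 and 173.2 CPM per kb. *Rnf2*, the catalytic subunit of Polycomb repressive complex 1, had 204.0, 210.5 and 177.8 CPM. *Mdm2*, the ligase of p53, had 193.7, 198.2 and 233.9 CPM. *Stub1*, a ligase that works with chaperones, had 79.5, 78.8 and 74.7 CPM, although exons of other genes overlap 42.3% of its length. *Cbl*, which ubiquitinates activated receptor tyrosine kinases, had 34.8, 45.1 and 38.8 CPM. Its mean was 3.20 CPM per kb, and *Fbxo4* was the lowest of the list per kb at 0.455 CPM per kb. Of 27 deubiquitinating enzymes 25 were detected, and *Usp7* had 508.1, 522.8 and 479.0 CPM. *Atxn3*, a deubiquitinating enzyme gene expressed in many tissues, had 1, 1 and 0 counts.

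The enzymes of the ubiquitin system varied over the libraries as follows. Of 32 detected E2 genes 19 had a highest library less than 25% above the lowest, as had 8 of 9 E1 genes, 19 of 36 genes of the ligase list and 17 of 25 deubiquitinating enzymes, where 46.9% of all detected genes did. By class of level this share was 52.55% at 10 to 100 CPM and 67.5% at 100 to 1000 CPM. None of the 9 detected E1 genes and the 25 detected deubiquitinating enzymes of these lists differed over 2-fold. Of all detected genes 8.65% did, and of genes at 10 to 100 CPM 4.65%. *Usp26*, a ubiquitin-specific protease outside the list, differed over 2-fold, with 75.9, 79.6 and 269.6 CPM. *Psmd7*, a proteasome lid subunit, had 204.2, 204.4 and 202.3 CPM.

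Aurora B, Cyclin D1 and a Polycomb protein are named by the study, and their genes were read together with related genes. All 6 genes of Aurora kinases and the chromosomal passenger complex were detected. *Aurkb* had 94.0, 95.5 and 119.9 CPM, and *Aurka*, its paralog at the spindle poles, was level at 135.2, 135.9 and 135.1 CPM. *Aurkc*, the paralog of the germline, had 2.10 and 2.38 CPM in replicates 1 and 2 and 14.9 CPM in replicate 3. The D cyclins drive exit from G1 phase. *Ccnd3* had 226.4, 226.5 and 238.7 CPM and *Ccnd1* had 221.9, 244.5 and 162.9 CPM, while *Ccnd2* had 37.2 and 37.7 CPM in replicates 1 and 2 and 11.9 CPM in replicate 3. All 32 Polycomb subunits were detected, led by mean per kb by *Rbbp7* (110.6 CPM per kb), *Phc1* (109.2) and *Mtf2* (91.8). The ranges of *Rbbp7* and *Phc1* overlapped, as did those of *Phc1* and *Mtf2*.

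Lineage genes differed in how many were detected. In bulk RNA, fewer cells of a type and less RNA per cell cannot be told apart. Of 23 primitive endoderm genes 17 were detected (73.9%), above the 59.5% of protein-coding genes. With the threshold raised to 2 CPM in each library 9 were detected. The matrix genes *Sparc* and *Lamc1* had means of 266.9 and 436.8 CPM, whereas these transcription factor genes were low. *Gata4* had 2.89, 2.80 and 2.07 CPM, *Gata6* had 2.01, 1.81 and 2.23 CPM, and *Foxa2* had 13, 14 and 3 counts. *Pou5f1* was 1836, 2179 and 1354 times as high as *Gata6* per kb.

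Of 24 genes of the primitive streak and mesoderm 7 were detected (29.2%), 17 lay between and none was not seen. The share detected was 59.5% over protein-coding genes and 34.2% over all genes. The highest mean of the list was 7.15 CPM. The count of 7 rests on the threshold, being 3 at 2 CPM and 15 at 10 counts in each library. *Eomes*, a T-box factor, had 6.55, 7.07 and 4.55 CPM, and *T* (brachyury) had 34, 21 and 15 counts. Of 25 neural genes 8 were detected (32.0%), and 15 had at least 10 counts in each library. *Nes*, an intermediate filament gene of neural progenitors, had 107.1, 109.2 and 55.9 CPM, and the tubulin gene *Tubb3* had 68.5, 69.6 and 48.0 CPM. *Pax6* had 9.33, 9.15 and 2.83 CPM. These 3 genes were lower in replicate 3, as were 6 of the 8 detected neural genes and 6 of the 7 detected mesoderm genes, where 35.4% of all detected genes were.

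Of 18 trophoblast genes 10 were detected (55.6%, against 59.5% of protein-coding genes). The imprinted gene *Peg10* was high and level at 1070, 1076 and 1077 CPM, and the keratin genes *Krt8* and *Krt18* had means of 220.6 and 208.2 CPM. *Elf5*, a factor of trophoblast stem cells, had 7, 2 and 3 counts, and *Prl2c2* and *Tpbpa* were not seen. Of 21 germline genes 14 were detected (66.7%, against 59.5% of protein-coding genes). *Dazl* had 53.3, 67.7 and 63.6 CPM, and the sperm protamines *Prm1* and *Prm2* were not seen. Of 8 genes of the two-cell-like state 6 were detected, but 9 further symbols chosen for this list were absent from the deposited data. *Zscan4c*, the highest by mean per kb with a range that overlapped that of *Zscan4d*, had a mean of 16.1 CPM. Its copies are near-identical and may share reads.

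Genes that mark fibroblasts and feeder cells were examined as a list. Whether such cells were in the culture was not tested. Of 20 fibroblast and feeder genes 12 were detected, where 59.5% of protein-coding genes were. The summed level of the list was 844.7, 862.2 and 1000 CPM. *Fn1* supplied most of this sum with 487.1, 500.4 and 586.0 CPM. *Tagln* had 127.2, 129.2 and 113.0 CPM, although exons of other genes overlap 67.9% of its length. Among other fibroblast genes *Col1a1* had a mean of 25.5 CPM (697, 649 and 1379 counts), *Thy1* 10.8, *Col1a2* 10.7 and *Pdgfrb* 4.56. *Col3a1* had a mean of 0.522 CPM, and *Lum* and *Fap* were not seen. Of 29 genes of adult tissues 8 had at least 10 counts in each library. At the 1 CPM threshold 5 were detected (17.2%), 19 lay between and 5 were not seen, among them *Ins1*, *Ins2* and *Gcg*. The exceptions were *Nphs1*, the gene of the podocyte protein nephrin, with 58.2, 60.8 and 52.0 CPM, the skeletal muscle actin gene *Acta1* with 33.3, 35.5 and 57.4 CPM, and *Myh6*, *Myh7* and *Cd3e* at lower levels. Exons of another gene overlap 11.8% of the length of *Nphs1* and 0% of that of *Acta1*.

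**Figure D3:**
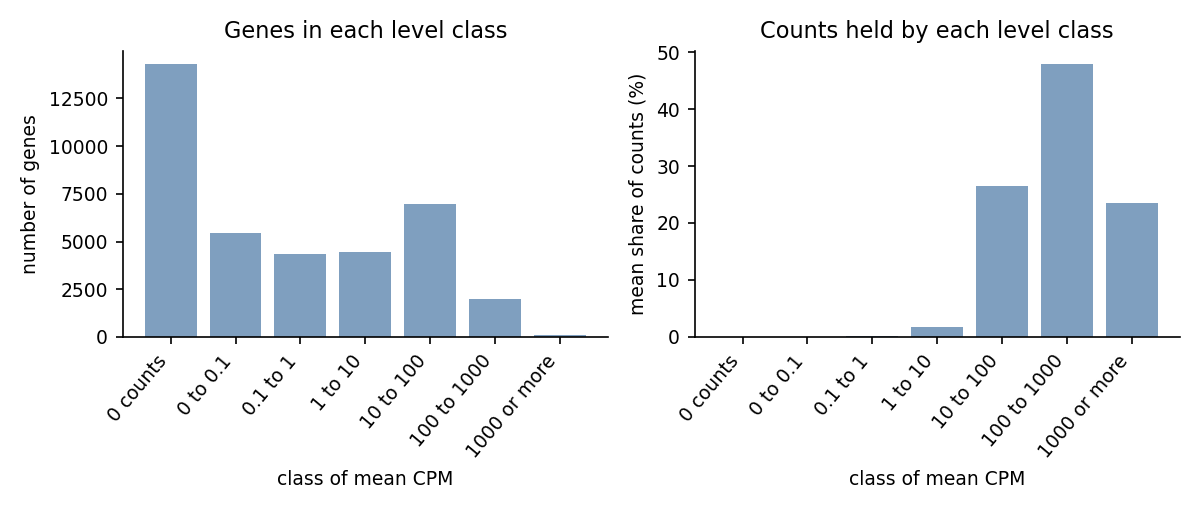
Number of genes (left) and mean share of counts in percent (right) by class of mean CPM over the 3 wild-type libraries. The 14284 genes with 0 counts form the largest class, and the 101 genes at 1000 CPM or more hold 23.6% of the counts.

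Transcription factor families differed in how many members were detected. Over 22 families with 324 genes, 174 were detected (53.7%), 140 lay between and 10 were not seen. The share detected was 59.5% over protein-coding genes and 34.2% over all genes. All 8 E2F factors, all 13 of the MYC and MAX network, all 8 TEAD and TCF factors and all 4 SALL factors were detected, as were 14 of 17 KLF factors. By contrast 4 of 38 HOX factors, 2 of 9 PAX factors, 1 of 11 LIM homeodomain factors and 4 of 17 T-box factors were. At 10 counts in each library it was 5 LIM homeodomain and 9 T-box factors, and at 2 CPM 2 HOX factors. *Hoxb5*, *Hoxc8*, *Hoxd3* and *Hoxd12* were not seen. Of 6 GATA factors 5 were detected, but the highest mean was 2.62 CPM, and 1 was detected at 2 CPM. In the SOX and POU families 1 member stood above the rest. *Sox2* had 230.5 CPM per kb against 25.5, 26.6 and 37.8 for *Sox15*, and *Pou5f1* had 545.8 against 10.7 for *Pou2f1*. The ranges of these pairs did not overlap. *Klf2* and *Klf4* overlapped in their ranges, with *Klf2* higher in every library, and the order of *Sall4* and *Sall1* turned in replicate 3.

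In the order by CPM, not divided by length, a mitochondrial gene led. *mt-Co1*, a subunit of cytochrome oxidase encoded in the mitochondrial genome, came first with 19515, 19231 and 24044 CPM. *Eef1a1*, the elongation factor that brings tRNA to the ribosome, followed with 13721, 13509 and 14283 CPM, and then *Hsp90aa1* with 9401, 8738 and 9193 CPM. The 10 highest genes of each library held 8.82%, 8.28% and 8.91% of the counts, and 658, 686 and 730 genes held 50% of them. Mitochondrial transcripts took 6.44%, 5.88% and 6.35%. Without them the share of the 10 highest genes was 5.97%. Per kb, 11 of the 20 highest genes were mitochondrial, and *Eef1a1* was the highest nuclear gene at 5504, 5419 and 5729 CPM per kb. *Gm23935*, at 2082 CPM per kb, is annotated as a miRNA of 57 bases, and its rank per kb is uncertain.

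Of 85 cytosolic ribosomal protein genes 84 were detected. Their summed level was 63448, 62024 and 64884 CPM, and 76 of the 84 had a highest library less than 25% above the lowest. *Rpl4* had 3714, 3639 and 3862 CPM. All 19 glycolysis genes were detected, led per kb by *Gapdh*, *Aldoa* and *Pkm*, and 16 of the 19 were higher in replicate 3 than in both other libraries, where 54.6% of all detected genes were. *Hk2*, which traps glucose in the cell, was an exception at 341.1, 341.3 and 339.4 CPM.

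Genes often used as references were not equally level. *Gapdh* had 2761, 2758 and 2874 CPM, a CV of 2.35%, whereas *Actb* had 2963, 2991 and 1944 CPM, a CV of 22.7%. *Casc3*, the reference gene of the study, had 77.7, 80.6 and 92.6 CPM, a CV of 9.43%, and *Tbp* had 45.9, 47.6 and 38.0 CPM. *Hprt*, which encodes a purine salvage enzyme that the E14TG2a derivative of E14 is known to lack, had 24, 23 and 18 counts, or 0.681, 0.692 and 0.484 CPM. The labels name no derivative of E14.

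Genes at higher levels varied less over the libraries. Of all genes 12884 were detected (34.2%) and 14284 were not seen (38.0%), and among 20195 protein-coding genes 59.5% were detected and 14.6% were not seen. The median CV fell from class to class, from 23.1% at 1 to 10 CPM to 11.2% at 10 to 100, 7.99% at 100 to 1000 and 6.73% at 1000 CPM or more. The median counting error was 9.12%, 2.99%, 1.29% and 0.439% in these classes, below the spread in each. Replicate 3 carried more of this spread than the others. The median difference between replicates 1 and 2 fell from 11.4% at 1 to 10 CPM to 2.95% at 1000 CPM or more, and that of replicate 3 from both fell from 42.9% to 8.83%. Of detected genes 1114 (8.65%) differed over 2-fold between their highest and lowest library. Replicate 3 was the highest in 878 of them and the lowest in 220. Between replicates 1 and 2 alone 24 genes differed over 2-fold.

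**Figure D4:**
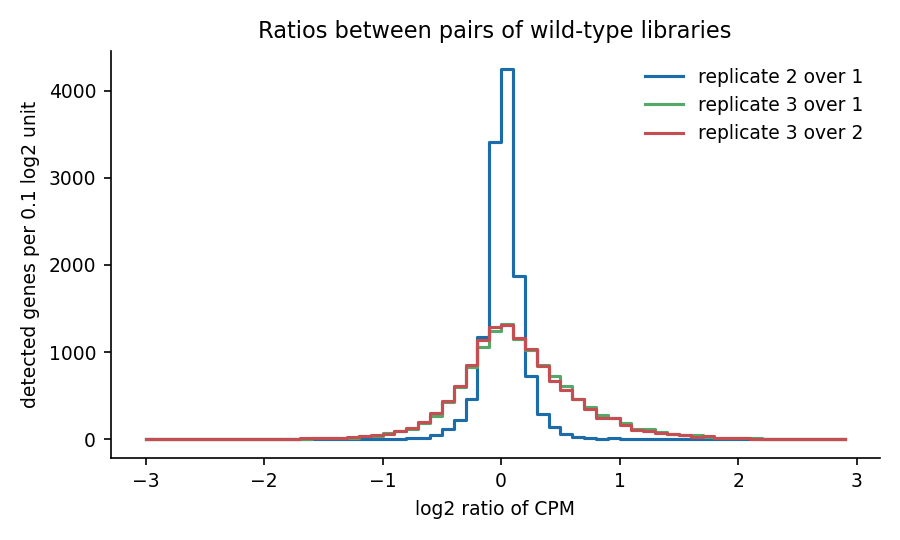
Distribution of the log2 ratio of CPM between pairs of wild-type libraries over the 12884 detected genes, in steps of 0.1. The ratio of replicate 2 to replicate 1 is narrow, and both ratios to replicate 3 are broad with a longer arm toward genes higher in replicate 3.

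In 2309 detected genes (17.9%) replicates 1 and 2 lay within 1.2-fold of each other and replicate 3 lay over 1.5-fold from their geometric mean. Replicate 3 was above it in 1706 and below it in 603. Over all detected genes the median ratio of replicate 3 to that mean was 1.07. The TMM scaling factors were 0.970, 0.983 and 1.05 for replicates 1, 2 and 3. Counts of genes higher or lower in replicate 3 are in plain CPM and include this offset. Among genes of at least 10 CPM in every library, the largest ratio was that of the imprinted RNA *H19*, with 14.6, 13.4 and 70.3 CPM. It was followed by *Txnip*, a glucose-responsive inhibitor of thioredoxin, with 285.6, 298.8 and 1312 CPM, and by *Trh*, the gene of thyrotropin-releasing hormone, with 149.4, 162.7 and 36.5 CPM. *Ntn1* and *Sned1* were also lowest in replicate 3, and *Usp26*, *Gm2a*, *Fos* and *Xlr3a* were highest in it. At the other end *Ubap2* had 195.7, 195.9 and 195.5 CPM. *Ubap2* was picked for a small ratio, and its CV of 0.0983% is below its counting error of 1.21%. What sets replicate 3 apart was not tested.

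The start regions of highly expressed and silent genes differed in CpG content, a property that was not used to class them. The CpG ratio divides the CG pairs seen in the window from 250 bases before to 50 bases after the start by the number that its C and G content would give. Stretches of 100 bases, from -100 to -1 relative to the start, are shown for high genes, for *Ube2d3*, for a low lineage factor and for genes that were not seen, with each CG and each TATAAA on the strand of the gene in capitals. They lie at chr9:78481725-78481824 (minus) for *Eef1a1*, chr9:64173287-64173386 (plus) for *Rpl4*, chr3:135438132-135438231 (plus) for *Ube2d3*, chr2:148046970-148047069 (minus) for *Foxa2*, chr16:10792106-10792205 (minus) for *Prm2* and chr2:62483654-62483753 (minus) for *Gcg*.
Eef1a1: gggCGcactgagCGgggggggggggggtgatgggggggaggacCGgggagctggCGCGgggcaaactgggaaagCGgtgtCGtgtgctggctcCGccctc
Rpl4: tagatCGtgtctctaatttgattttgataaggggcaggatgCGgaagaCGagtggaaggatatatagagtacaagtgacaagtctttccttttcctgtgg
Ube2d3: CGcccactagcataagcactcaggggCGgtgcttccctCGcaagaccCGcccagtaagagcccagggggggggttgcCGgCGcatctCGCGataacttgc
Foxa2: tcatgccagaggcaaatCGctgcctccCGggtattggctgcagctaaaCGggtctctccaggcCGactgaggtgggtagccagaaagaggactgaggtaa
Prm2: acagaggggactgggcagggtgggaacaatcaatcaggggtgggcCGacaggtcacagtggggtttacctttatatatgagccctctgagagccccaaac
Gcg: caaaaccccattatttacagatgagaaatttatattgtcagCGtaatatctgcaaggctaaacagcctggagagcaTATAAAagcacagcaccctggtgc
*Eef1a1*, *Rpl4* and *Ube2d3* had CpG ratios of 0.697, 1.06 and 0.838 over their windows, against 0.548 for *Foxa2*, 0.137 for *Prm2* and 0.423 for *Gcg*. *Rpl4* had 40.7% G and C, the lowest of these 6 windows, and the highest CpG ratio.

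Over 17102 genes with a RefSeq window, the median CpG ratio rose with each class of level. It was 0.152 for genes not seen (quartiles 0.0734 and 0.275), 0.253 below 0.1 CPM, 0.406 at 0.1 to 1 CPM, 0.648 at 1 to 10, 0.792 at 10 to 100, 0.861 at 100 to 1000 and 0.933 (quartiles 0.770 and 1.06) at 1000 CPM or more. A ratio of at least 0.6 was found in 4.27% of the windows of genes not seen and in 86.6% of those at 100 to 1000 CPM. TATAAA between 45 and 16 bases before the start was found in 2.74% of all windows, in 6.83% of those of genes not seen and in 0.756% of those at 10 to 100 CPM. The share was 1.26% at 100 to 1000 CPM and 2.94% (2 windows) at 1000 CPM or more. The lists did not follow this order. The median CpG ratio was 0.242 for 22 adult tissue genes, but 0.791 for 19 neural genes and 0.647 for 17 genes of the primitive streak and mesoderm. Of these last 2 lists 32.0% and 29.2% of the members were detected, against 59.5% of protein-coding genes. It was 0.873 for 62 ribosomal protein genes and 0.855 for 29 E2 genes, which were nearly all detected. The lists of ESC genes, all of them detected, lay lower, with 0.407 for the 4 ESC markers, 0.620 for 14 naive factors and 0.607 for 19 ESC-enriched genes, against 0.602 for all windows.

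**Figure D5:**
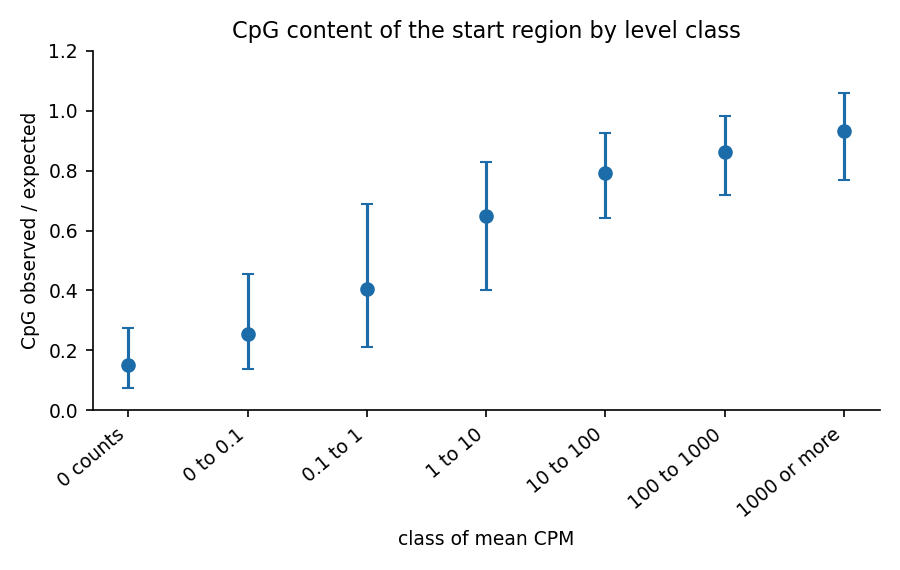
Ratio of observed to expected CG pairs in the 300 bases around the start site (vertical axis) by class of mean CPM (horizontal axis), with points at the median and bars from the lower to the upper quartile over genes. The median is 0.152 for genes with 0 counts and 0.933 for genes at 1000 CPM or more.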

How the data were processed

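PolyA RNA-seq was deposited as raw counts of reads per gene. Per the labels, the authors used CASAVA 1.8.4 for base calls, TopHat2 2.0.11 for alignment (mm9, NCBIM37) and featureCounts for the deposited counts. For the last, the version, strand setting and treatment of reads with several matches are not given in the sources used here. ERCC spike-in RNA was added, and 0 rows of the table are spike-ins, so levels are relative to the library total. 3 further columns of per-sample values were not used, and 0 rows named no gene.

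Counts of the 3 wild-type libraries (33227593 to 37169770) were divided by the library total in Python 3.11.15. Symbols, exon lengths, biotypes and exon overlaps were matched by identifier to GENCODE M21 for 32897 of 37620 genes (87.4%). That annotation is on another build (GRCm38) than the counts, so levels per kb are approximate. Genes without a match held 0.847 to 0.998% of the counts. Scaling factors came from edgeR 4.0.16. A count of 0 was read as at most 3 counts, and this limit covers counting error only. Upstream sequences are from RefSeq (GRCm38.p6), which gave a window for 17102 genes. Where several windows were given, that nearest the GENCODE start was taken.

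Members and lists were chosen with earlier results of these data known. Named were genes the study names, the 20 highest by CPM and per kb, of 56 lists up to 8 highest and 3 lowest per kb and members not seen, and the 10 genes with the largest and the 10 with the smallest ratio between libraries at 10 CPM or more. Not every gene so named is printed, and some are not reported here. Alternatives were detection at 0.5 CPM, 2 CPM or 10 counts, TMM and upper-quartile scaling, totals without mitochondrial and the 10 highest genes, other length divisors, protein-coding promoters only and each library left out.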

Additional observations from a re-analysis of the deposited data

How the results depend on the processing

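No paired analysis was possible because only 1 group is described. The number of detected genes (12884) lay between 11720 and 15021 under every threshold and scaling tried, and between 13008 and 13066 with each library left out. The number of genes over 2-fold apart was 225 among genes of at least 10 CPM in every library, and with each library left out it lay between 24 and 928, the 24 being without replicate 3. Without mitochondrial transcripts the highest 10 genes held 5.97% and the highest 100 held 19.8% of the counts, against 8.67% and 23.6%. Of the 20 highest genes per kb, 13 remained among the 20 highest by CPM and 17 per kb of the longest coding transcript. The number of detected members stayed within 1.5 times in all 56 lists under TMM scaling, in 54 at 0.5 CPM, in 51 at 2 CPM, in 49 at 10 counts and in 55 without replicate 3. A gene at 1 CPM rests on 33.2 to 37.2 reads, and a count of 0 in a library allows up to 0.0807 to 0.0903 CPM there.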
